A study of Mus musculus with 12 samples.

Results

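Chemosensory receptor genes encode the proteins with which sensory neurons and taste cells detect odorants, pheromones and bitter compounds, and they are described here as seen by the transcription factors Meis1 and Hoxb13 in the mouse heart. The members are the peaks that the authors' annotation assigned to a gene whose symbol starts with Olfr, Vmn1r, Vmn2r, Taar or Tas2r. They number 717 of 52818 peaks: 590 of 30534 in the Meis1 list, which is 1.93% (95% interval 1.78 to 2.09%), and 127 of 22284 in the Hoxb13 list, which is 0.570% (0.475 to 0.678%). All intervals on shares are exact binomial intervals that cover counting error only, and neighbouring peaks of a gene cluster are not independent of each other.

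Ventricles of 3 CD-1 mouse hearts at postnatal day 15 were studied by chromatin immunoprecipitation followed by sequencing (ChIP-seq), which finds the DNA fragments that crosslink to a protein. The sheared chromatin of each heart was divided evenly between an antibody against Meis1 (Santa Cruz, sc-10599X) and an antibody against Hoxb13 (GeneTex, GTX129245), and a small part of it was set aside as input. The 12 libraries form 4 groups of 3: Meis1 ChIP, Hoxb13 ChIP and an input group labelled for each. The labels name no mutation or treatment. The ventricle holds cardiomyocytes among other cells, and the peaks do not say in which cells the factors were bound. Each factor has 1 peak list over its 3 libraries, so no peak has a value per library, the spread between hearts cannot be given, the depth is unknown and no comparison carries a test.

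The odorant receptors (Olfr) are G protein-coupled receptors of olfactory sensory neurons, the vomeronasal receptors (Vmn1r and Vmn2r) detect pheromones in the vomeronasal organ, the trace amine-associated receptors (Taar) detect amines in the olfactory epithelium, and the Tas2r genes encode bitter taste receptors. Most are members of tandem arrays made by gene duplication, and many have a coding region in a single exon. In an olfactory neuron 1 allele of a single odorant receptor gene is usually transcribed, and in other tissues most of these genes are silent. Meis1 is a homeodomain cofactor of Hox proteins, and Hoxb13 is a posterior Hox protein. Both have been studied as regulators that hold back the division of heart muscle cells after birth.

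Peaks were looked up at 5 cardiomyocyte genes. Myh6, Tnnt2, Actn2, Ryr2 and Myl2, which encode contractile and calcium-handling proteins, each had peaks of both factors, with the strongest Meis1 peak at Myl2 (strength 540) and the strongest Hoxb13 peak at Ryr2 (50.8). Of 5 olfactory sensory neuron genes, 3 had a Meis1 peak, 3 had a Hoxb13 peak and 1 had both, where 38.2% of all coding genes had a Meis1 peak and 44.3% had a Hoxb13 peak. Peaks do not measure expression, and with peaks at so many genes these short lists cannot check the labelled tissue.

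Sequence was examined where a peak reached the RefSeq promoter window of a receptor gene, which runs from 250 bases before to 50 bases after the gene start on GRCm38.p6 (mm10). A window was found for 1309 of 2129 receptor genes. Meis1 peaks touched 14 of the 1314 receptor windows and Hoxb13 peaks touched 2, those of Olfr1413 and Olfr1231. The letters TGACAG, a core bound by Meis proteins, lay in the covered part of 3 Meis1 windows. These are shown because the match had the same place in all of them, inside the gene and not before it. Each sequence below is the part of the window under the Meis1 peak, 5′ to 3′ in the direction of the gene, with TGACAG in capitals. The regions are chr16:59284446-59284535 for Olfr202, chr2:86171766-86171856 for Olfr1044 and chr7:108323625-108323731 for Olfr492, all on the minus strand.

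Olfr202: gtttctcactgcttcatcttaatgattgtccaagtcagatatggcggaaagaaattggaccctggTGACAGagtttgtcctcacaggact
Olfr1044: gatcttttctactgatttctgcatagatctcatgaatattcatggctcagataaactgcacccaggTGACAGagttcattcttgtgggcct
Olfr492: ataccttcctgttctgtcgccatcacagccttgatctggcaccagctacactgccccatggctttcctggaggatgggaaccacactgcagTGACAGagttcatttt

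The match began at base 26 of Olfr202, base 26 of Olfr1044 and base 35 of Olfr492, counted from 1 at the gene start, and the next letters were the same in all 3, giving the run TGACAGAGTT. That run of 10 letters, searched on the gene strand after these sequences had been seen, was in the first 50 bases of 37 of 948 Olfr windows (3.90%, 2.76 to 5.34%) and of 39 of all 32851 windows (0.119%, 0.0844 to 0.162%). TGACAG itself, searched on both strands, was in the first 50 bases of 12.3% of Olfr windows (10.3 to 14.6%), against 3.54% of all windows (3.34 to 3.74%). In the Vmn1r windows it was there in 1.46% (0.301 to 4.20%). The Olfr genes therefore carry this core in their first bases more often than genes in general, whether or not a peak is present. Over the whole window, TGACAG was in 3 of the 14 windows under a Meis1 peak (21.4%), in 22.8% of all receptor windows and in 19.2% of all windows. With 14 windows, which the peaks cover only in part, these shares cannot show a difference or a likeness. In the 250 bases before the start it was in 0 of the 14, in 14.5% of receptor windows and in 15.9% of all windows.

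The other windows under Meis1 peaks had no match in the covered part, either of the Meis core or of the Hoxb13 sites searched. Of these, sequences are shown for Tas2r139, a bitter receptor gene on chromosome 6, and Olfr699, on chromosome 7, where the peak lies across the gene start. Capitals mark the bases from the gene start on. The regions are chr6:42140759-42140985 on the plus strand and chr7:106790950-106791084 on the minus strand. The window under the Hoxb13 peak of Olfr1413, chr1:92573029-92573174 on the plus strand, is shown only up to the gene start, in lower case.

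Tas2r139: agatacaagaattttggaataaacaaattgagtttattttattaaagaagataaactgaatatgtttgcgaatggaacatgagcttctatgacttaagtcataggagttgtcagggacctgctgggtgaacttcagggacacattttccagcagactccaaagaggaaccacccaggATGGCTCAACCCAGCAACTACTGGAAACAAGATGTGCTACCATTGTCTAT
Olfr699: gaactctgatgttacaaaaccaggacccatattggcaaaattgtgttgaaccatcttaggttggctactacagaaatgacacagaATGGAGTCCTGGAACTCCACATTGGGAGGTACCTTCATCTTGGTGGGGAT
Olfr1413: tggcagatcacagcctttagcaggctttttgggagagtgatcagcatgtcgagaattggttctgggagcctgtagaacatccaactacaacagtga

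The peaks over these starts were weak ones. The authors' strength, a value per peak whose scale is not stated, was 17.0 at Olfr202, 17.2 at Olfr1044, 15.8 at Olfr492, 16.0 at Tas2r139 and 16.3 at Olfr699 for Meis1, in a list that begins at 15.6. At Olfr1413 the Hoxb13 peak had a strength of 18.7, in a list that begins at 17.8. The Hoxb13 site TTTATTG, searched on both strands of the whole window, was in 13.5% of receptor windows, against 4.60% of all windows. The site TTTACGA was in 0.381% of receptor windows, against 0.597% of all windows. Receptor windows had a median of 35.8% G+C and 1 CpG, against 52.7% and 7 in all windows.

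A smaller share of receptor genes than of coding genes as a whole had a peak assigned. Receptor genes stand close together, and the part of this spacing in the shares was not tested. Of 1515 coding receptor genes, 410 had at least 1 Meis1 peak (27.1%, 24.8 to 29.4%), against 38.2% of all 21896 coding genes. With Hoxb13 it was 101 (6.67%, 5.46 to 8.04%), against 44.3% of all coding genes. Both factors were assigned to 41 of these receptor genes, Meis1 alone to 369, Hoxb13 alone to 60 and neither to 1045. The same split was not counted over all coding genes, so these numbers do not set the receptor genes apart. The gap between the factors is thus much wider at receptor genes than over all coding genes, where more genes had a Hoxb13 peak than a Meis1 peak.

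Among families, the share of coding genes with a Meis1 peak was highest for bitter taste receptors. It was 16 of 35 Tas2r genes (45.7%, 28.8 to 63.4%), 52 of 124 Vmn2r genes (41.9%, 33.1 to 51.1%), 287 of 1110 Olfr genes (25.9%, 23.3 to 28.5%), 52 of 231 Vmn1r genes (22.5%, 17.3 to 28.4%) and 3 of 15 Taar genes (20%, 4.33 to 48.1%). The intervals of Tas2r and Vmn2r overlap each other and that of Taar. With Hoxb13 the shares were 7 of 35 Tas2r genes (20%, 8.44 to 36.9%), 14 of 124 Vmn2r genes (11.3%, 6.31 to 18.2%), 15 of 231 Vmn1r genes (6.49%, 3.68 to 10.5%), 65 of 1110 Olfr genes (5.86%, 4.55 to 7.40%) and 0 of 15 Taar genes, which allows up to 21.8%. For Hoxb13 the intervals of Tas2r, Vmn2r, Vmn1r and Taar overlap each other, and that of Vmn2r also overlaps that of Olfr. Only the intervals of Tas2r and Olfr lie apart from each other. Shares whose intervals overlap can still differ beyond counting error, and no pair of families was tested. The odorant receptors, as the largest family, gave most of the peaks: 398 with Meis1 and 77 with Hoxb13.

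Most receptor genes with a peak had a single one. With Meis1, 301 genes had 1 peak and 87 had 2, and with Hoxb13, 88 genes had 1 and 10 had 2. Olfr161, an odorant receptor gene on chromosome 16, had the most with either factor, 11 Meis1 and 10 Hoxb13 peaks. It was followed for Meis1 by Olfr164 with 7 and Vmn2r3 with 6, and for Hoxb13 by Vmn1r2 with 6 and Olfr987 with 3.

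The receptor-assigned peaks lay mainly between genes. Of the Meis1 ones, 72.7% (68.9 to 76.3%) were distal intergenic, against 54.6% of the other Meis1 peaks. For Hoxb13 it was 78.0% (69.7 to 84.8%), against 25.0%. Introns held 7.12% of the receptor-assigned Meis1 peaks and 34.0% of the others, and 1.57% and 23.6% for Hoxb13. The class just downstream of a gene was more frequent at receptor genes, 4.92% against 0.872% for Meis1 and 9.45% against 2.81% for Hoxb13. The assigned transcripts were short, with a median length of 951 bp at receptor-assigned Meis1 peaks and 30746 bp at the others, and of 942 bp and 21600 bp for Hoxb13. What part transcript length has in the class shares was not tested.

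The promoter class holds the peaks nearest to a gene start, and its share differed in opposite ways for the 2 factors. It took 76 of 590 receptor-assigned Meis1 peaks (12.9%, 10.3 to 15.9%), against 6.61% of the other Meis1 peaks (6.33 to 6.90%) and 6.73% of the whole list. It took 10 of 127 receptor-assigned Hoxb13 peaks (7.87%, 3.84 to 14%), against 40.5% of the other Hoxb13 peaks (39.8 to 41.1%) and 40.3% of the whole list. So among peaks assigned to receptor genes the promoter share was higher than elsewhere for Meis1 and lower for Hoxb13. The lower Hoxb13 share holds for peaks assigned to receptor genes and not for the receptor gene clusters as regions. Of all 273 Hoxb13 peaks inside the clusters, 42.5% were of the promoter class, which is not lower than in the whole list. Of these 273 peaks, 170 were assigned to other genes. Receptor-assigned peaks gave at most 10 of the promoter peaks, so the 42.5% comes mainly from the other genes. Zinc finger (Zfp) genes, another family with tandem clusters, had promoter shares of 17.2% for Meis1 and 52.9% for Hoxb13.

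**Figure D1:**
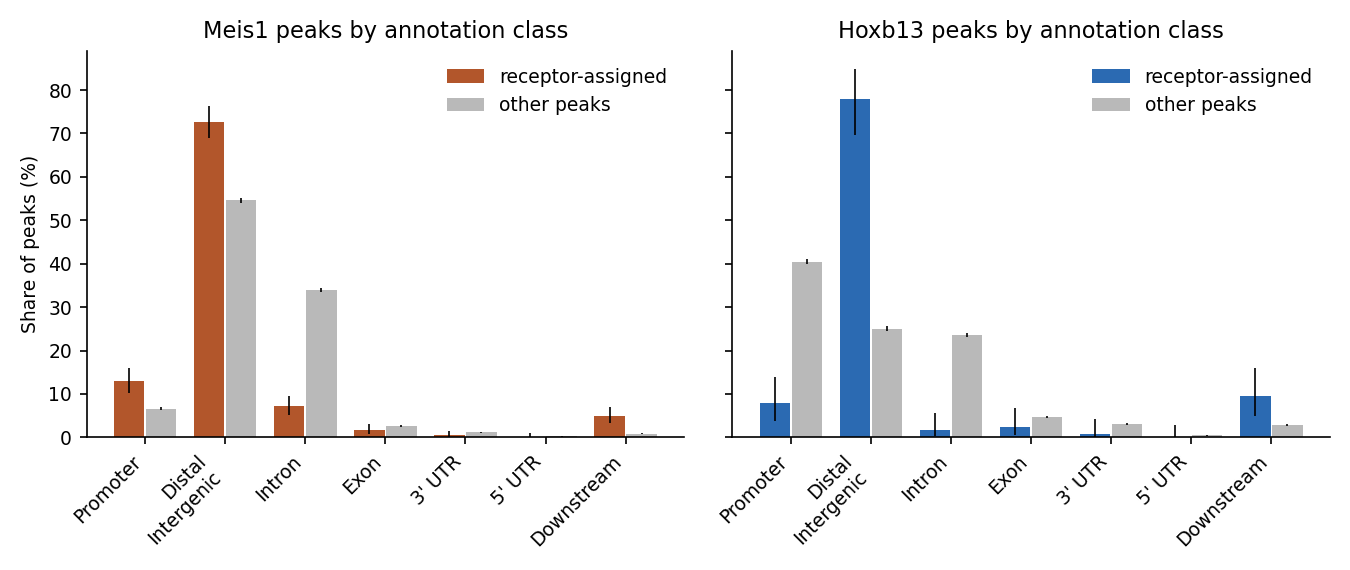
Share of peaks (%) in each annotation class for Meis1 (left) and Hoxb13 (right), with receptor-assigned peaks in colour and the other peaks of the same list in grey; error bars are exact binomial 95% intervals. The promoter bar is 12.9% against 6.61% for Meis1 and 7.87% against 40.5% for Hoxb13.

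Distances to the assigned start were short for Meis1. The median was 7.37 kb at receptor genes (95% interval of the median 5.94 to 8.42 kb), against 60.8 kb for the other Meis1 peaks, and 59.5% of the receptor-assigned peaks lay within 10 kb, against 19.1% of the others. For Hoxb13 the median was 11.9 kb (7.78 to 22.7 kb), against 4.49 kb for the other Hoxb13 peaks, and 44.9% lay within 10 kb, against 59.0%. The median distance of Meis1 peaks was 5.15 kb at Olfr, 4.82 kb at Taar, 10.9 kb at Vmn1r, 15.8 kb at Tas2r and 26.7 kb at Vmn2r genes. For Hoxb13 it was 7.56 kb at Olfr, 9.34 kb at Tas2r, 25.5 kb at Vmn1r and 40.2 kb at Vmn2r genes. Receptor genes stand close together in their clusters, and the part of this gene spacing in the distances was not tested.

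In the promoter class the receptor-assigned Meis1 peaks sat mostly on the gene side of the annotated start. The summit, the position of highest signal within a peak, was downstream of the start in 54 of 76 (71.1%, 59.5 to 80.9%), against 38.3% of the other Meis1 promoter peaks (36.2 to 40.5%). For Hoxb13 it was downstream in 9 of 10, against 63.2% of the other promoter peaks. In most receptor windows under a peak the gene began with ATG, the letters of a start codon. The annotated start there can differ from the place where transcription begins. What part this has in the summit positions, the promoter class, the distances and the motif counts before the start was not tested. The strongest Meis1 promoter peaks at receptor genes were at Olfr24 (26.6), Olfr785 (25.5), Olfr1385 (25.2), Olfr1054 (22.5) and Vmn1r38 (22.2). The strongest for Hoxb13 was at Olfr1396 (28.1), with its near end 0.333 kb upstream of the start, followed by Olfr556 (21.3), Vmn1r237 (21.0) and Olfr1231 (20.6).

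Summits were then counted inside 803 Olfr coding genes under 1500 bp and in windows of the same length on either side. This count was chosen after the promoter peaks had been seen, and a summit between neighbouring genes can fall in the windows of both. Meis1 had 31 summits inside the genes. It had 6, 18 and 17 in the 3 windows going upstream and 7, 13 and 9 in the 3 going downstream, so the gene bodies held more than any flanking window. In the stronger 50% of the Meis1 list this order was lost, with 6 summits inside the genes and 8 in the third window upstream. Hoxb13 had 5 inside, 1 in each of the 3 upstream windows, and 1, 1 and 4 downstream. The 797 other coding genes under 1500 bp had 13 Meis1 summits inside, with 12 in the next upstream and 7 in the next downstream window. They had 77 Hoxb13 summits inside, with 30 upstream and 19 downstream.

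Within the Olfr genes the Meis1 summits lay toward the start. The median was 270 bp from it (range 56 to 926 bp) in genes with a median length of 945 bp, 25 of 31 were in the first 50% of the gene (median position 28.8% of its length), and the stretch from 200 to 300 bp alone held 11. Examples are Olfr1132 at 277 bp, Olfr1141 at 270 bp, Olfr1284 at 270 bp, Olfr1461 at 249 bp and Olfr806 at 248 bp, on chromosomes 2, 19 and 10. All 31 were of the promoter class, which follows from their place near the start. Their strengths ran from 15.6 to 25.5 with a median of 17.0, the 29.8th percentile of the Meis1 list. The position toward the start was shared by the other short coding genes, where 10 of 13 Meis1 summits (median position 24.3%) and 58 of 77 Hoxb13 summits (30.0%) were in the first 50%.

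Inside 184 Vmn1r genes there were 7 Meis1 summits, with their median at 590 bp from the start. The 3 windows going upstream held 1, 1 and 2 summits, and the 3 going downstream held 0, 3 and 0. In 31 Tas2r genes there were 2 summits, in Tas2r102 and Tas2r109. Of the Olfr genes with TGACAG in their first 50 bases, 8 of 109 had a Meis1 summit inside (7.34%, 3.22 to 14%), against 23 of 694 other Olfr genes (3.31%, 2.11 to 4.93%). These intervals overlap, and the difference was not tested.

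**Figure D2:**
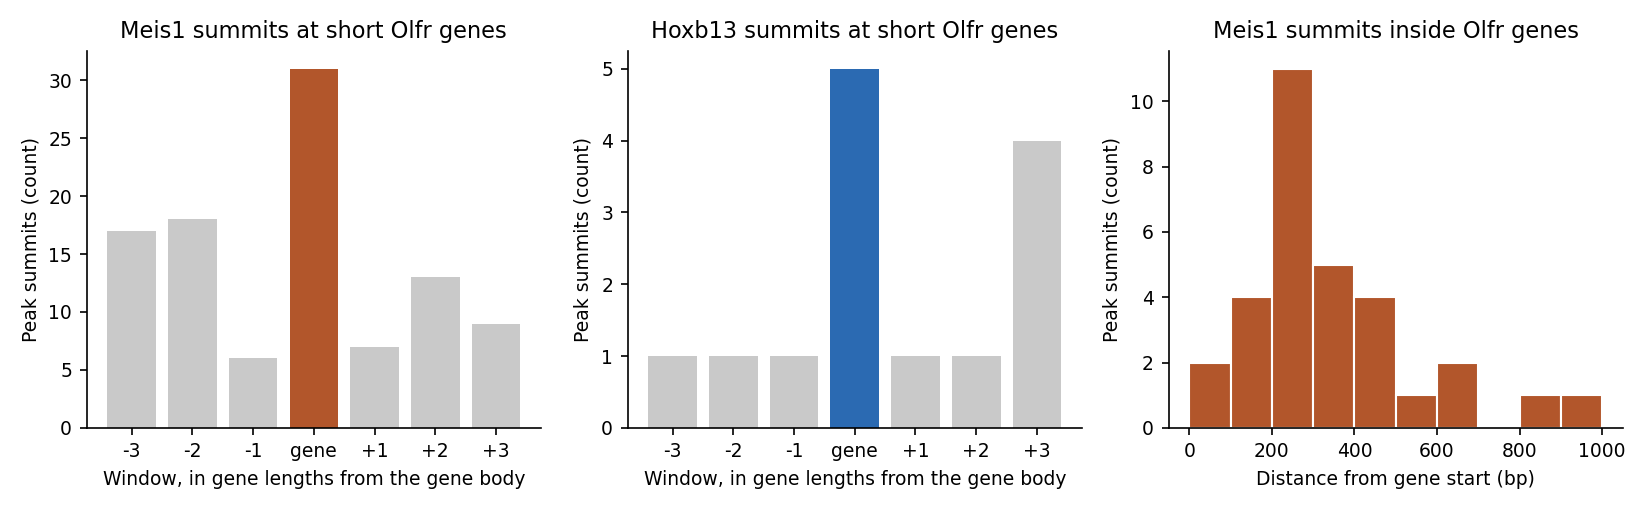
Number of peak summits inside 803 short Olfr coding genes (coloured bar) and in 3 windows of the same length upstream (negative) and downstream (positive) for Meis1 (left) and Hoxb13 (middle), and distance in bp of the 31 Meis1 summits from the gene start (right). The gene window holds 31 Meis1 and 5 Hoxb13 summits, and the bin from 200 to 300 bp holds 11 of the 31.

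Receptor-assigned peaks were weaker than the rest of their lists at the median. For Meis1 the median strength was 17.4 (17.2 to 17.6), at percentile 35.6 (33.2 to 39.1), against 18.7 and percentile 50.4 for the other Meis1 peaks. For Hoxb13 it was 19.6 (19.2 to 20.6), at percentile 31.8 (26.2 to 42.7), against 21.4 and percentile 50.1. Among distal intergenic peaks alone, the median percentile in the whole list was 36.3 (33.2 to 40.2) at receptor genes against 43.9 at other genes for Meis1. For Hoxb13 it was 32.1 (24.2 to 43.4) against 37.1, which lies within the interval, so that difference was not detectable. In the promoter class the gap was wide: percentile 33.5 at receptor genes against 74.1 at other genes for Meis1, and 23.6 against 68.7 for Hoxb13.

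The strong end of the lists separated the factors. Only 6 receptor-assigned Meis1 peaks were among the strongest 10% of the Meis1 list (1.02%, 0.374 to 2.2%), where the whole list has 10% by construction. Of the receptor-assigned Hoxb13 peaks, 18 were among the strongest 10% of the Hoxb13 list (14.2%, 8.62 to 21.5%), again against 10%. In the strongest 1% there were 2 Meis1 peaks at receptor genes (0.339%, 0.0411 to 1.22%; 0.999% of the whole list) and 9 Hoxb13 peaks (7.09%, 3.29 to 13.0%; 1% of the whole list). The Hoxb13 peaks thus had many at the weak end, 22 in the weakest decile and 3 in the next to strongest, and then 18 in the strongest decile.

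**Figure D3:**
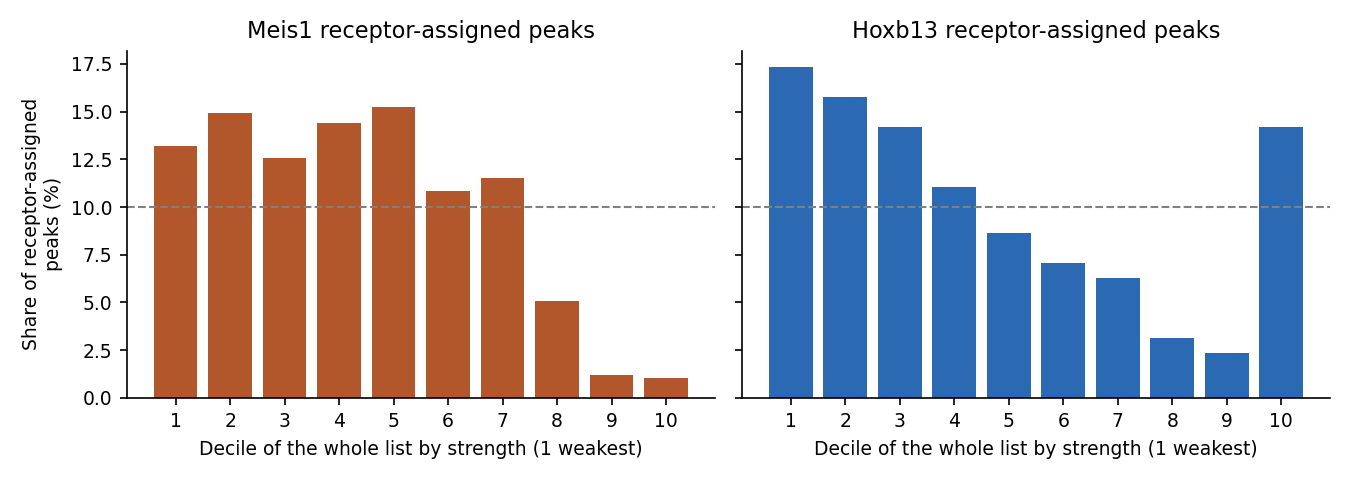
Share (%) of receptor-assigned peaks in each decile of the whole peak list by strength, from weakest (1) to strongest (10), for Meis1 (left) and Hoxb13 (right); the dashed line marks the 10% that the whole list has in each decile. Meis1 has 1.02% in the strongest decile and Hoxb13 has 14.2%.

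The strongest receptor-assigned Hoxb13 peak, with a strength of 371, was 14.1 kb from the start of Olfr914 on chromosome 9 (38620586 to 38620920). Next was a peak of 341 on chromosome 5 (151516422 to 151516755), 70.2 kb from Vmn2r18. A pair of similar strength lay in the Vmn1r55 cluster on chromosome 7: 181 at Vmn1r65, 5.05 kb from its start, and 178 at Vmn1r61, 5.61 kb upstream. Olfr1287 (172), Olfr338 (124), Vmn1r238 (117) and Vmn2r51 (106) followed. None of the 9 in the strongest 1% was of the promoter class, against 115 of the 214 other Hoxb13 peaks at that strength (53.7%). Of the 9, 8 were narrower than the 396 bp that most Hoxb13 peaks have, as were 188 of those 214 (87.9%).

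The strongest receptor-assigned Meis1 peaks were 332 on chromosome 19 (14165872 to 14166094), 247 kb from Olfr1505, and 283 on chromosome 2 (87294042 to 87294270), 14.5 kb upstream of Olfr1118. The next was much lower, 80.2 in an intron of the receptor pseudogene Vmn2r-ps11. Olfr1120 (56.5), Tas2r119 (52.8) and Vmn2r3 (45.6) came after it. Of these 6, no peak was of the promoter class. Tas2r119, a bitter receptor gene on chromosome 15, was also the strongest Tas2r gene for Hoxb13 (63.7, at 240 kb from its start, the Meis1 peak being at 215 kb on the same side). The 3 Taar peaks, all Meis1, had strengths of 20.1 at Taar9, 16.4 at Taar8b and 15.7 at Taar3.

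Receptor genes were joined into clusters where neighbours were at most 1 Mb apart, which gave 116 clusters over 71.2 Mb. A single gene made up 45 of the 116. Of the receptor-assigned peaks, 538 Meis1 and 103 Hoxb13 peaks lay inside a cluster so defined, and 52 Meis1 and 24 Hoxb13 peaks lay outside. Of the 36 clusters with 10 or more genes, 34 had a receptor-assigned Meis1 peak, 26 had a Hoxb13 one, 25 had both and 1 had neither. Nearly every large cluster thus held a receptor-assigned Meis1 peak, but not every receptor gene in it had one. The 36 large clusters cover 62.9 Mb, and Meis1 had 11.3 peaks per Mb outside receptor clusters. Most regions of such length would hold a Meis1 peak, so this count does not set the clusters apart.

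Counting all peaks inside the clusters, whichever gene they were assigned to, Meis1 had 9.62 peaks per Mb, against 11.3 in the rest of the genome, and Hoxb13 had 3.83, against 8.36. Over the 36 large clusters the Meis1 density ran from 0.759 to 21.6 per Mb with a median of 9.87, and the Hoxb13 density from 0 to 17.7 with a median of 2.88. The highest Meis1 density was in the 32 genes from Olfr172 to Olfr209 on chromosome 16. The lowest was in the 99 genes from Vmn1r91 to Vmn1r183 on chromosome 7, with 3 Meis1 peaks and 1 Hoxb13 peak in 3.95 Mb. How reads that map to several similar gene copies were handled is not given in the sources used here, and the part of it in these densities was not tested. The highest Hoxb13 density was in the 19 genes from Olfr1396 to Olfr1380 on chromosome 11, where 3 of 8 Hoxb13 peaks were assigned to receptor genes.

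The largest cluster, 293 genes from Olfr987 to Olfr1274 on chromosome 2 (85330967 to 90401674), held 84 receptor-assigned Meis1 peaks and 15 Hoxb13 peaks, the most for either factor. Its Meis1 density was 17.2 per Mb and its Hoxb13 density 2.96. On chromosome 9 the cluster from Olfr160 to Olfr986 held 38 Meis1 and 7 Hoxb13 peaks, and the cluster from Olfr24 to Olfr18 held 32 and 3. On chromosome 10 the cluster from Olfr9 to Vmn2r87 held 29 and 3. The mixed cluster from Vmn1r55 to Vmn1r-ps69 on chromosome 7 held 21 and 10, at nearly equal densities of 4.82 and 4.57 per Mb.

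**Figure D4:**
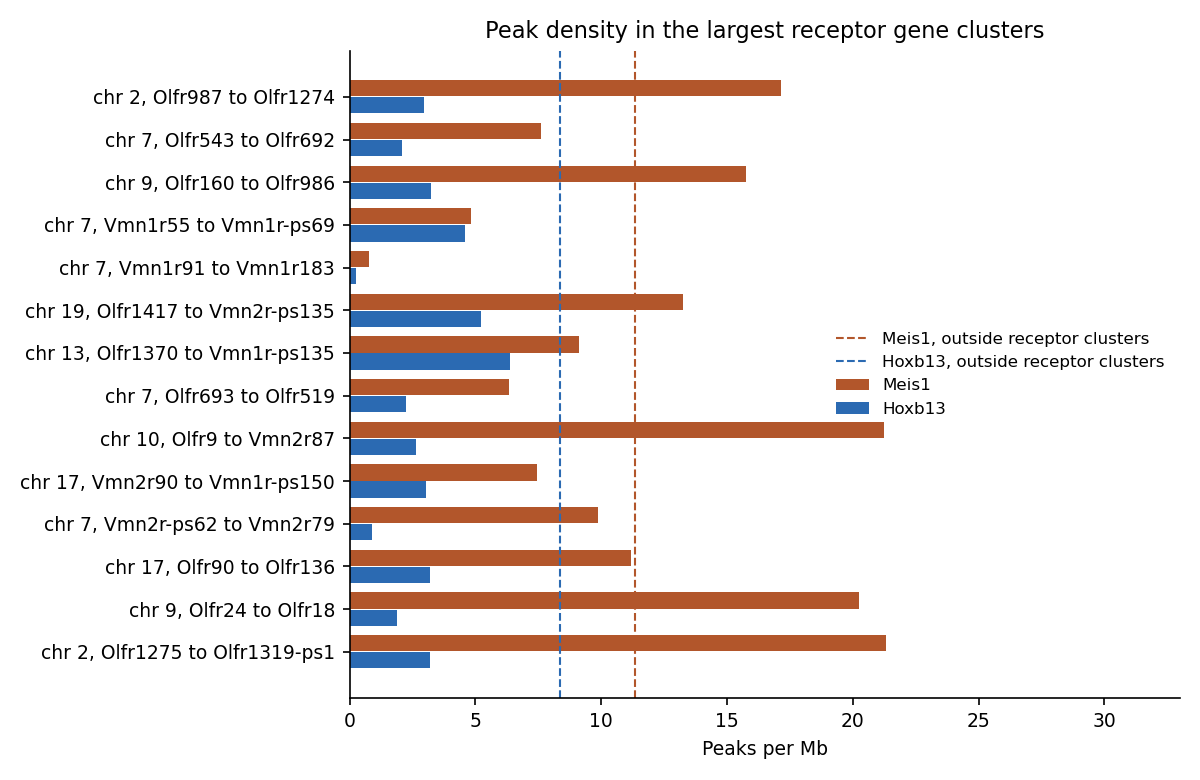
Peaks per Mb in the 14 receptor gene clusters with the most genes, for Meis1 and Hoxb13, counting every peak in the cluster; dashed lines mark the densities outside receptor clusters, 11.3 for Meis1 and 8.36 for Hoxb13. All 14 Hoxb13 bars are below the Hoxb13 line, while 6 Meis1 bars are above the Meis1 line.

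Few peaks of the factors overlapped at receptor genes. The share was below that of the whole list for Meis1, and for Hoxb13 a difference was not detectable. A receptor-assigned Meis1 peak overlapped a Hoxb13 peak by at least 1 bp in 8 of 590 cases (1.36%, 0.587 to 2.65%), against 5.63% of the other Meis1 peaks and 5.54% of the whole list. Seen from Hoxb13 it was 8 of 127 (6.30%, 2.76 to 12.0%), against 7.94% of the others and 7.93% of the whole list. Among distal intergenic peaks alone, 6 of 429 receptor-assigned Meis1 peaks overlapped (1.40%, 0.515 to 3.02%), against 2.56% of the others. That value lies within the interval, so no Meis1 difference was detectable in this class. In the promoter class 1 of 76 receptor-assigned Meis1 peaks overlapped (1.32%, 0.0333 to 7.11%), against 37.7% of the other Meis1 promoter peaks. Of the receptor-assigned Hoxb13 promoter peaks 1 of 10 overlapped (10%, 0.253 to 44.5%), against 8.90% of the other Hoxb13 promoter peaks. That pair was at Olfr195, where the peaks shared 47 bp and their summits were 293 bp apart.

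The other overlaps were at Vmn2r112 on chromosome 17, at Olfr686 on chromosome 7, at Olfr873 on chromosome 9 with summits 14 bp apart, and 4 times upstream of Olfr161. At Olfr873 the strengths were 16.4 for Meis1 and 19.8 for Hoxb13, both in the weaker 50% of their lists. The 4 at Olfr161 lay between 316 and 327 kb upstream of the gene, with Meis1 strengths of 39.1, 28.5, 18.4 and 23.1 and Hoxb13 strengths of 19.0, 21.5, 21.2 and 21.0 at the same places.

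Those peaks are near the beginning of the assembled part of chromosome 16, and this was looked at after the data had been seen. Of the receptor-assigned peaks, 12 of 590 for Meis1 (2.03%, 1.06 to 3.53%) and 20 of 127 for Hoxb13 (15.7%, 9.89 to 23.3%) started before position 3600000 of their chromosome. Of the other peaks it was 0.281% for Meis1 and 0.487% for Hoxb13. The Meis1 ones were 11 assigned to Olfr161 and 1 to Vmn1r2, on chromosome 4. The Hoxb13 ones were 10 assigned to Olfr161, 6 to Vmn1r2, 2 to Vmn1r3 and 2 to Vmn1r238. Without them 4 of the 8 overlaps were left, the share of Hoxb13 peaks beyond 100 kb was 1.87% in place of 10.2%, and the share in the strongest 10% of the Hoxb13 list was 12.1% in place of 14.2%.

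A list of 32 other chemosensory genes, which encode signalling proteins, regulators and further receptors, was set beside the receptor genes. Of these, 13 had a Meis1 peak, 13 had a Hoxb13 peak, 7 had both and 13 had neither, and 13 of 32 is close to the 38.2% and 44.3% of all coding genes. A promoter peak was present at 2 for Meis1 and at 7 for Hoxb13. The shares of all coding genes with both factors, with neither or with a promoter peak were not counted. Those counts therefore do not set the listed genes apart from others. Ric8b, a chaperone of the olfactory G protein, had the most Meis1 peaks, 8 of up to 131, and 6 Hoxb13 peaks of up to 26.5. Gnat3 also had 6 Hoxb13 peaks, of up to 37.1, and no Meis1 peak. Ldb1, a cofactor of LIM-homeodomain proteins, had Hoxb13 promoter peaks of up to 98.8, and Plcb2, the phospholipase of taste cells, had a Meis1 peak of 434.

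Several channel and receptor genes had no peak of either factor, among them the channel genes Cnga4, Trpc2 and Trpm5 and the sweet and umami receptor genes Tas1r1, Tas1r2 and Tas1r3. The olfactory channel gene Cnga2 had 1 Hoxb13 peak, with a strength of 23.0. Gnal, the G protein of olfactory neurons, had 1 Meis1 peak (21.7), Adcy3, their adenylyl cyclase, had 1 (22.7), and Omp, their marker protein, had 1 Hoxb13 promoter peak, near the weak end of its list. Of the formyl peptide receptor genes of the vomeronasal organ, Fpr-rs6 had a Hoxb13 peak of 143 and a Meis1 peak of 16.2, and Fpr-rs3, Fpr-rs4 and Fpr-rs7 had none.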

How the data were processed

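ChIP-seq peaks of Meis1 and Hoxb13 from ventricles of postnatal day 15 CD-1 mice were analysed as 1 list per factor, deposited by the authors with a gene, an annotation class and a signed distance to the start for each peak. The submitters' processing notes name Bowtie2 2.2.3, Picard, ChIPseeker, deepTools 1.6 and the build mm10, with no role or order. The sources used here do not state the peak caller, its threshold, the pooling or the handling of reads with several map positions, which can change which peaks in duplicated genes are listed. Strength is the deposited signal value of each peak, and it was used only within its list. A second deposited score was used only as an alternative ranking. The depth per library is unknown.

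Members and gene lists were chosen with earlier results of these data known. Named peaks are the 10 strongest per factor, the promoter peaks (10 strongest), the 5 closest to a start, genes and clusters with most peaks, Taar and Tas2r peaks and the overlapping peaks; genes with a summit inside, and those whose sequence is shown for its place, were chosen after their values were seen. Clusters were made from the RefSeq gene table (GRCm38.p6), which held 475 of 476 assigned genes. Shares have exact binomial 95% intervals and medians have order-statistic intervals. Promoter windows and sequences are from RefSeq (GRCm38.p6). Gene bodies, the longer sequence run and chromosome beginnings were added after seeing the data. Python 3.11.15, pandas 2.3.3, numpy 2.4.6, scipy 1.17.1 and matplotlib 3.10.9 were used, and the counting steps were tested on simulated data. Alternatives were the stronger 50% of each list, assignment by position in a cluster, cluster gaps of 500 and 250 kb, other distances and overlaps, and a shorter promoter window. Input libraries were not analysed here.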

Additional observations from a re-analysis of the deposited data

How the results depend on the processing

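Limiting each list to its stronger 50% left 175 Meis1 and 42 Hoxb13 peaks at receptor genes, 146 and 32 receptor genes with a peak, 1 overlap for each factor, and 6 and 0 summits inside short Olfr genes, the 6 Meis1 ones being fewer than the 8 in the third window upstream. For Hoxb13 it also left 16 clusters and a promoter share of 2.38%. Taking every peak inside a receptor cluster in place of the assigned gene gave 273 Hoxb13 peaks with a promoter share of 42.5%. These include 170 peaks assigned to other genes, so the value describes the clusters as regions and not the receptor genes. Measured from the summit to the nearest receptor gene body, the median distance was 3.79 kb for Meis1 and 6.35 kb for Hoxb13. Ranked among the distal intergenic peaks alone, the median percentile of strength was 41.7 for Meis1 and 44.3 for Hoxb13. The 8 overlaps became 4 with a reciprocal overlap of 50%, 3 with summits within 100 bp and 4 without the first 0.6 Mb of chromosomes. With only the 250 bases before the start, TGACAG was in 0 Meis1 windows. Among Olfr genes under 1000 bp, Hoxb13 had 3 summits inside. Each follows from the peaks or windows that the alternative keeps. In 36 further cases, among them a ranking by the second deposited score, the value was counted as the same, though some of these shifted. The median Hoxb13 distance of 11.9 kb became 8.67 kb without the first 0.6 Mb of chromosomes and 14.5 kb in the stronger 50%. The 45 clusters with a receptor-assigned Meis1 peak became 35 in the stronger 50% and 58 with a gap of 250 kb. No paired analysis was possible because each list is pooled over its libraries, and for the same reason no replicate could be left out. The weak end of a list depends on a threshold that is not known.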
